A study of Mus musculus with 6 samples.

Results

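The genes described here encode the autophagy machinery of C2C12 mouse myoblasts. They were 37 genes chosen by name, from the kinase complex that starts autophagy to the proteins of the lysosomal membrane, out of 55421 genes in the count table. All 37 passed the filter on low counts and are among the 19005 genes that were tested. C2C12 is a mouse myoblast line whose cells fuse into multinucleated myotubes after serum is withdrawn. Each group carried a stably integrated plasmid with a *GFP* gene that ends in a run of CTG repeats outside the coding sequence. The run has 5 repeats in CUG5, the normal group, and 200 repeats in CUG200, the DM1 group. Cells of both groups were selected with G418 and differentiated in horse serum medium containing insulin. Each group has 3 libraries of total RNA from day 4 of differentiation. The comparison of CUG200 with CUG5 asks how RNA with an expanded repeat, which models myotonic dystrophy type 1 (DM1), alters the transcripts of differentiating myoblasts. The model carries the repeat in a *GFP* transcript and not in *Dmpk*. The sources used here do not say whether a group is 1 clone or a pool, or whether its replicates, which the study calls biological, came from separate transfections. The p-values measure the spread between these libraries. The transgene was not analysed here.

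Macroautophagy encloses cytoplasm, protein aggregates or organelles in a double membrane, the autophagosome, which then fuses with a lysosome. The ULK1 kinase complex starts the process, the class III PI3-kinase complex marks the membrane with phosphatidylinositol phosphate, and ATG9, ATG2 and WIPI proteins supply and recognise the growing membrane. A chain of conjugation enzymes attaches ATG8 proteins (the LC3 and GABARAP groups) to that membrane, receptors bind both cargo and ATG8, and the transcription factor TFEB drives many lysosomal and autophagy genes. In skeletal muscle, autophagy removes damaged mitochondria and remodels the cytoplasm while myoblasts form myotubes.

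Of the 37 genes, 8 passed the test, 4 in each direction. *Bnip3* and *Bnip3l* (mitophagy receptors), *Gabarap* (an ATG8 protein) and *Ulk1* (the initiating kinase) were higher in the DM1 group, while *Sqstm1* (the receptor p62), *Pik3r4* (a PI3-kinase subunit), *Lamp1* (a lysosomal membrane glycoprotein) and *Ulk2* (a relative of *Ulk1*) were lower. These 8 genes had an adjusted p under 0.05, from edgeR's quasi-likelihood F test after Benjamini-Hochberg correction over all genes tested. They are 21.6% of the 37, where the same test called 15.9% of all genes tested (7.13% higher and 8.73% lower). The largest difference was 0.73 on the log2 scale (*Bnip3*), so that 0 of the 37 passed the study's cutoff of an absolute log2 fold change over 1 with edgeR, and 0 with DESeq2, where 2.18% of all genes did (1.36% higher and 0.816% lower). An unadjusted p under 0.05 was found for 10 of the 37 genes (4 higher and 6 lower), where 30.7% of all genes tested had one (14.7% higher and 16.0% lower). The log2 fold changes ran from -0.61 to 0.73 with a median of 0.03, beside a median of 0.02 over all genes tested. The groups did not overlap for 15 of the 37 genes (6 all higher and 9 all lower in the DM1 libraries), where 37.2% of all genes tested had no overlap. For 23 of the 29 genes that did not pass the test, the 95% interval of the log2 fold change lay within 0.5 of no change. The other 6 were *Atg13*, *Atg9a*, *Atg7*, *Atg10*, *Gabarapl1* and *Gabarapl2*. The bound of 0.5 is wider than the differences of the called genes *Ulk1*, *Ulk2*, *Gabarap*, *Bnip3l* and *Lamp1*. An interval within it can therefore still hold a difference of that size. The counts of 4 higher and 4 lower genes fell to 1 and 2 without CUG5 library 1, to 2 and 2 without CUG5 library 2, to 1 and 1 without CUG5 library 3, and to 2 and 1 without CUG200 library 2. With limma on the deposited values, as log2(TPM + 1), *Bnip3*, *Sqstm1* and *Lamp1* were called, while *Ulk1*, *Ulk2*, *Pik3r4*, *Gabarap* and *Bnip3l* kept their direction at adjusted p-values of 0.355, 0.111, 0.107, 0.137 and 0.125. Without TMM scaling, *Ulk1* and *Ulk2* were not called (edgeR adjusted p = 0.0831 and 0.0533).

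**Figure D1:**
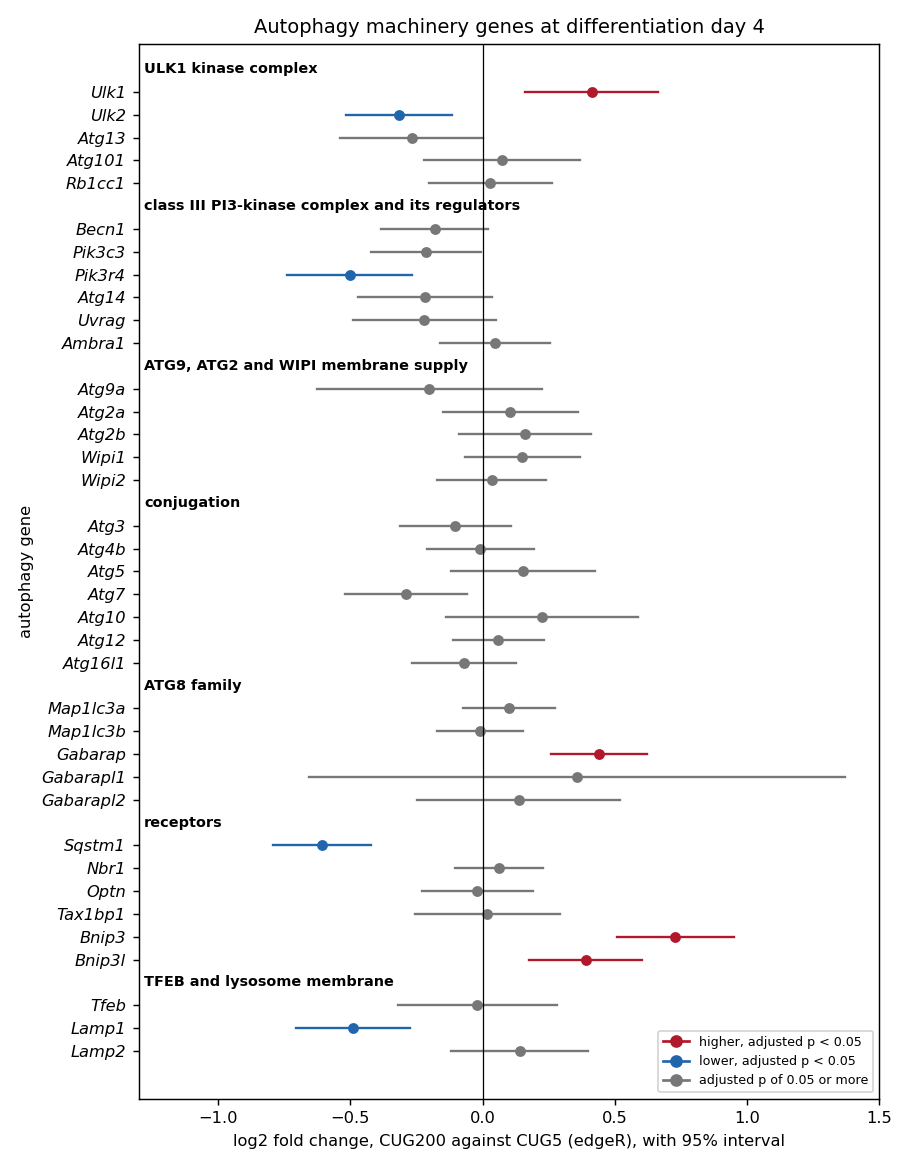
The log2 fold change of CUG200 against CUG5 (edgeR, x axis) of each of the 37 autophagy genes (y axis, grouped by role), with its 95% interval as a line; colour marks genes with an adjusted p under 0.05. The 4 higher genes lie between 0.39 and 0.73 and the 4 lower genes between -0.61 and -0.32, and most of the others have intervals that cross 0.

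The libraries held between 61707889 and 80957325 counts, and 1 count stands for 75 aligned bases. The commonest low count above 0 was 4, which was taken as 1 fragment. On that basis the libraries held 15426972 to 20239331 fragments, fewer than their counts. Levels are given as counts scaled to library size (CPM) after TMM scaling where a gene is compared between libraries, and as the deposited TPM, which is per transcript length, where genes are compared with each other. The share of mitochondrial counts was between 8.90% and 13.5%. Library 3 of both groups stood apart from the other libraries on the second principal component, at -14 and -13.7 against 3.07 to 11.5. The labelled cell type was checked against marker genes. Of 18 myotube markers, 14 were lower in the DM1 group and 0 were higher (edgeR, adjusted p under 0.05), where 8.73% of all genes tested were lower and 7.13% higher. Their median log2 fold change was -0.87, with a summed level of 16171 to 17508 CPM in the normal libraries against 9826 to 11506 CPM in the DM1 libraries. Of 6 muscle lineage genes, 4 were lower, and of 8 genes of undifferentiated or cycling myoblasts, 1 was higher (*Id2*, log2 fold change 0.41, edgeR adjusted p = 0.0304) and 0 were lower. These 8 genes summed to 758 to 767 CPM in the normal libraries and 749 to 910 CPM in the DM1 libraries. In bulk RNA, fewer myotubes and less RNA per myotube cannot be told apart, and the part of this shift in the differences of the autophagy genes was not tested. Defining markers of macrophages (*Ptprc*, *Adgre1*), adipocytes (*Adipoq*, *Cidec*, *Lep*), epithelium (*Epcam*) and neurons (*Rbfox3*) had 0 counts in all 6 libraries, which allows up to 3 fragments (12 counts), or 0.148 to 0.194 CPM, for counting error alone. Other genes of these lists were detected. *Cd68* held 174 to 323 counts, *Csf1r* 6 to 45, *Cdh1* 54 to 96, *Syp* 20 to 52 and *Tubb3* 5863 to 9195, and none of these 5 passed the edgeR test between the groups. *Lyz2*, *Plin1*, *Krt8*, *Krt18* and *Snap25* held at most 20 counts. Of 4 endothelial markers, *Tek* held 280 to 698 counts and was lower in the DM1 group (edgeR, adjusted p = 0.0107), whereas *Pecam1*, *Cdh5* and *Kdr* held at most 26 counts.

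The transcripts of the kinases that start autophagy moved in opposite directions. *Ulk1* encodes the serine/threonine kinase of the initiation complex (GRCm38 chr5:110784488-110810097, minus strand). Its level was 74.5, 78.6 and 76.6 CPM in normal libraries 1, 2 and 3 and 87.3, 101 and 117 CPM in DM1 libraries 1, 2 and 3. In CPM, all DM1 libraries were above all normal libraries and were more spread, with 76.6 ± 2.07 CPM in the normal group and 102 ± 15.0 CPM in the DM1 group (mean ± SD, n = 3). In TPM the groups overlapped, at 46.2, 44.8 and 43.0 in the normal libraries and 43.7, 50.9 and 71.6 in the DM1 libraries. *Ulk1* differed by 0.41 on the log2 scale (SE 0.110, edgeR adjusted p = 0.0368). *Ulk2* (chr11:61775649-61855073, minus strand), whose kinase can act in place of ULK1, read 52.4, 49.1 and 57.3 CPM in the normal libraries and 44.2, 40.3 and 43.2 CPM in the DM1 libraries. The *Ulk2* groups did not overlap either, and the log2 fold change was -0.32 (SE 0.0884, edgeR adjusted p = 0.0434). Within a library, the TPM of *Ulk1* was 2.68, 2.95 and 2.58 times that of *Ulk2* in the normal group. It was 3.81, 4.61 and 5.20 times in the DM1 group. This ratio restates the opposite directions of these transcripts. The call of *Ulk1* was lost without CUG5 library 1, 2 or 3 (edgeR adjusted p = 0.123, 0.0977 and 0.117) and without CUG200 library 2 (adjusted p = 0.105). The call of *Ulk2* was lost without CUG5 library 1, 2 or 3 (edgeR adjusted p = 0.116, 0.0702 and 0.205) and without CUG200 library 1 or 2 (adjusted p = 0.0562 and 0.164).

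The 3 other subunits of the ULK1 complex did not pass the test. *Atg13*, the adaptor that links the kinase to the complex, read 34.1 to 36.2 CPM in the normal libraries and 24.3 to 32.8 CPM in the DM1 libraries (log2 fold change -0.27, edgeR adjusted p = 0.167). *Rb1cc1*, which encodes the scaffold FIP200, had a log2 fold change of 0.03, and *Atg101*, which stabilises ATG13, had one of 0.07. Their 95% intervals ran from -0.20 to 0.26 and from -0.22 to 0.37.

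The class III PI3-kinase complex had 1 lower gene among 6 (8.73% of all genes tested were lower), and 5 of its 6 genes had negative log2 fold changes (median -0.22), where 51.4% of all genes tested had positive ones. *Pik3r4* encodes VPS15, the regulatory subunit that anchors the lipid kinase (chr9:105642978-105687657, plus strand). It was measured at 24.1, 23.4 and 24.5 CPM in the normal libraries and at 15.6, 16.5 and 18.6 CPM in the DM1 libraries. The groups were well apart, at 23.97 ± 0.543 and 16.9 ± 1.55 CPM (mean ± SD, n = 3), with a log2 fold change of -0.50 (SE 0.103, edgeR adjusted p = 0.0147). This call was lost without CUG5 library 1, 2 or 3 (edgeR adjusted p = 0.057, 0.0501 and 0.0726) and without CUG200 library 2 (adjusted p = 0.0618). The catalytic subunit VPS34, encoded by *Pik3c3*, read 25.2 to 27.9 CPM in the normal group and 22.2 to 23.3 CPM in the DM1 group (log2 fold change -0.21, edgeR adjusted p = 0.155). *Becn1*, the scaffold Beclin 1, had a log2 fold change of -0.18 (edgeR adjusted p = 0.209), and *Atg14*, which directs the complex to autophagosome formation, had one of -0.22 (adjusted p = 0.225). These 3 genes were lower in every DM1 library than in any normal library without passing the test. With *Pik3r4*, 4 of the 6 genes were lower in every DM1 library, where 19.3% of all genes tested were. *Uvrag*, which belongs to the endosomal form of the complex, was at -0.22 with overlapping groups, and *Ambra1*, a regulator of Beclin 1, was at 0.05. Summed over the 6 genes, the level was 203 to 207 CPM in the normal libraries and 181 to 182 CPM in the DM1 libraries.

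None of the 5 genes that supply and read the growing membrane passed the test, where 15.9% of all genes tested did. An unadjusted p under 0.05 (edgeR) was found for 0 of the 5, where 30.7% of all genes tested had one. DESeq2 called 0 of the 5, beside 10.9% higher and 12.2% lower of the genes it tested. *Atg2a* and *Atg2b*, whose products transfer lipids, had log2 fold changes of 0.10 and 0.16. *Wipi1* and *Wipi2*, which bind the phosphorylated lipid, had log2 fold changes of 0.15 and 0.03. *Atg9a*, the lipid scramblase of the vesicles that seed the membrane, read 51.8, 47.7 and 52.1 CPM in the normal libraries and 30.8, 47.3 and 53.7 CPM in the DM1 libraries. Only DM1 library 1 was low. *Atg9a* shares exonic bases with *Gm29253* on the same strand, so its counts can be split between genes, and with the same-strand counts added its log2 fold change moved from -0.20 to -0.16. With the counts of *Ankzf1*, which shares its exons on the opposite strand, added as well, it moved to 0.02.

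Among the conjugation enzymes, 0 of 7 genes passed the edgeR test, where 15.9% of all genes tested did. Their median log2 fold change was -0.01. DESeq2 called 0 of the 7, beside 10.9% higher and 12.2% lower of the genes it tested. An unadjusted p under 0.05 (edgeR) was found for 1 of the 7, where 30.7% of all genes tested had one. *Atg7*, the E1-like enzyme that activates both ATG12 and the ATG8 proteins, was that gene. It read 21.9, 19.97 and 20.4 CPM in the normal libraries and 15.7, 17.4 and 17.9 CPM in the DM1 libraries. The *Atg7* groups did not overlap in CPM but did in TPM (19.5, 14.4 and 10.8 against 11.2, 11.8 and 16.8), and the log2 fold change of -0.29 (SE 0.102) had an edgeR adjusted p of 0.0906. It was -0.14 with limma on log2(TPM + 1) and -0.028 after centring on the median gene. *Atg3* and *Atg10*, the E2-like enzymes, had log2 fold changes of -0.10 and 0.23. *Atg12* and *Atg5*, which become joined to each other, had 0.06 and 0.15, *Atg16l1*, which places that conjugate on the membrane, had -0.07, and *Atg4b*, the protease that processes ATG8 proteins, had -0.01.

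The ATG8 family is anchored in the autophagosome membrane, and 1 of its 5 genes passed the test, where 15.9% of all genes tested did. *Gabarap* (chr11:69991143-69994951, plus strand) was the most abundant of all 37 genes, at a mean of 684 TPM over the 6 libraries. Its level was 451, 499.6 and 466 CPM in the normal libraries and 643, 645 and 635 CPM in the DM1 libraries. The DM1 libraries lay close together and clearly above the normal ones, at 641 ± 5.04 against 472 ± 24.9 CPM (mean ± SD, n = 3). This is a log2 fold change of 0.44 (SE 0.0797, edgeR adjusted p = 0.00938). The call was lost without CUG5 library 1 or 3 (edgeR adjusted p = 0.0502 and 0.0542). *Gabarap* took 58.9%, 62.5% and 59.0% of the TPM of the family in the normal libraries and 63.7%, 65.7% and 66.1% in the DM1 libraries.

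*Map1lc3a* and *Map1lc3b*, which encode LC3A and LC3B, did not pass the test. *Map1lc3a* read 133, 137 and 136.5 CPM in the normal libraries and 152, 142.5 and 141 CPM in the DM1 libraries (log2 fold change 0.10, edgeR adjusted p = 0.433). The DM1 libraries were all higher in CPM, whereas the TPM of *Map1lc3a* overlapped between the groups, at 253 to 268 and 249.2 to 278 TPM. *Map1lc3b*, the form most used as a marker of autophagosomes, read 74.4, 78.7 and 76.4 CPM in the normal libraries and 75.1, 77.0 and 76.0 CPM in the DM1 libraries. Its log2 fold change was -0.01 with a 95% interval from -0.17 to 0.15. Within a library the TPM of *Gabarap* was 11.97 to 12.7 times that of *Map1lc3b* in the normal group and 16.6 to 17.4 times in the DM1 group. LC3 transcripts were therefore less abundant than *Gabarap* in all 6 libraries.

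*Gabarapl1* and *Gabarapl2*, the other members of the GABARAP group, were measured with a wide error. *Gabarapl1* read 51.2, 18.1 and 50.6 CPM in the normal libraries and 52.7, 48.1 and 52.7 CPM in the DM1 libraries. Normal library 2, with 1109 counts, was low and the other 5 libraries lay close together. The log2 fold change of 0.36 (SE 0.403, edgeR adjusted p = 0.624) became 0.0060 without that library. *Gabarapl2* read 60.6, 53.4 and 53.6 CPM in the normal libraries and 77.8, 58.9 and 47.4 CPM in the DM1 libraries, with both the highest and the lowest value in the DM1 group. Its log2 fold change of 0.14 became -0.06 without DM1 library 1.

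**Figure D2:**
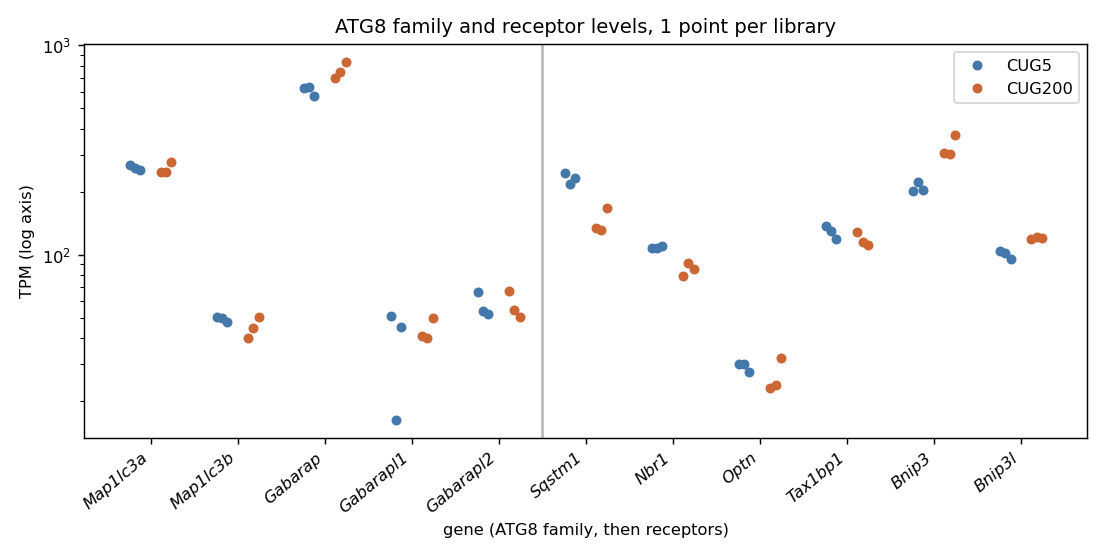
Deposited TPM (log axis) of the 5 ATG8 family genes and the 6 receptor genes (x axis), with 1 point per library coloured by group. *Gabarap* lies above the other ATG8 genes in every library, *Bnip3* lies higher and *Sqstm1* lower in the DM1 libraries, and the low *Gabarapl1* point is normal library 2 at 16.3 TPM.

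The receptors held the widest differences in both directions. *Bnip3* encodes a receptor in the outer mitochondrial membrane that binds ATG8 proteins and is known as a target of hypoxia-inducible factor (chr7:138890836-138909519, minus strand). Its level was 183, 220.0 and 205 CPM in the normal libraries and 358, 316 and 332 CPM in the DM1 libraries. The lowest DM1 library was far above the highest normal library, at 336 ± 21.4 against 202 ± 18.8 CPM (mean ± SD, n = 3). The level was 1.66-fold higher, a log2 fold change of 0.73 (SE 0.0975, edgeR adjusted p = 0.00327). *Bnip3* was called under all 19 alternatives with the threshold on the adjusted p alone, including without each library in turn.

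*Bnip3l*, also known as NIX, is a related mitophagy receptor (chr14:66985239-67008877, minus strand). It read 187, 198 and 190.5 CPM in the normal libraries and 271, 260 and 223 CPM in the DM1 libraries. The groups did not overlap, and DM1 library 3 was the nearest to the normal libraries. For *Bnip3l* the log2 fold change was 0.39 (SE 0.0941, edgeR adjusted p = 0.0262), and the call was lost without CUG5 library 1, 2 or 3 (adjusted p = 0.0985, 0.0784 and 0.0975) and without CUG200 library 2 (adjusted p = 0.10).

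*Sqstm1* encodes p62, which carries ubiquitinated cargo to the autophagosome and is itself degraded there (chr11:50199366-50210827, minus strand). Its level was 279, 267 and 287 CPM in the normal libraries and 190.5, 172 and 185 CPM in the DM1 libraries. The highest DM1 library was well below the lowest normal one, at 182 ± 9.63 against 278 ± 10.1 CPM (mean ± SD, n = 3). *Sqstm1* had a log2 fold change of -0.61 (SE 0.0817, edgeR adjusted p = 0.00331). *Sqstm1*, too, was called under all 19 of these alternatives. It shares exonic bases with *Mrnip* on the opposite strand, and the strand setting of the counting is not given in the sources used here. With the counts of *Mrnip* added its log2 fold change was -0.60 (edgeR adjusted p = 0.00337). *Lamp1* and *Bnip3* also have a partner on the opposite strand (*Grtp1* and *Gm45507*), and adding it left their log2 fold changes at -0.49 and 0.73.

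The makeup of the receptor transcripts differed accordingly. *Bnip3* took 24.4%, 27.4% and 25.9% of the receptor TPM in the normal libraries and 38.9%, 38.4% and 42.0% in the DM1 libraries. *Sqstm1* took 29.8%, 27.02% and 29.6% in the normal libraries and 16.9%, 16.8% and 18.8% in the DM1 libraries. The TPM of *Bnip3* was 0.820, 1.01 and 0.875 times that of *Sqstm1* in the normal libraries and 2.29, 2.29 and 2.23 times in the DM1 libraries. *Bnip3* and *Sqstm1* were thus near equal in the normal group, and *Bnip3* was the more abundant transcript in all DM1 libraries.

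The other 3 receptor genes did not pass the test. *Nbr1*, which works together with p62, read 145, 142 and 146 CPM in the normal libraries and 148, 151 and 152 CPM in the DM1 libraries (log2 fold change 0.06, edgeR adjusted p = 0.623). On the TPM scale *Nbr1* lay on the other side, at 108 ± 1.35 TPM in the normal group and 85.2 ± 5.93 TPM in the DM1 group (mean ± SD, n = 3), with a limma log2 fold change of -0.35 (adjusted p = 0.0721) on log2(TPM + 1). Its direction therefore depended on the unit. *Optn*, which encodes optineurin, read 40.9, 43.9 and 41.7 CPM in the normal libraries and 39.8, 39.0 and 45.9 CPM in the DM1 libraries. *Tax1bp1*, a receptor for protein aggregates, read 252, 258 and 242.5 CPM in the normal libraries and 297, 251 and 213 CPM in the DM1 libraries, which lay on both sides of the normal ones. Their log2 fold changes were -0.02 and 0.02.

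**Figure D3:**
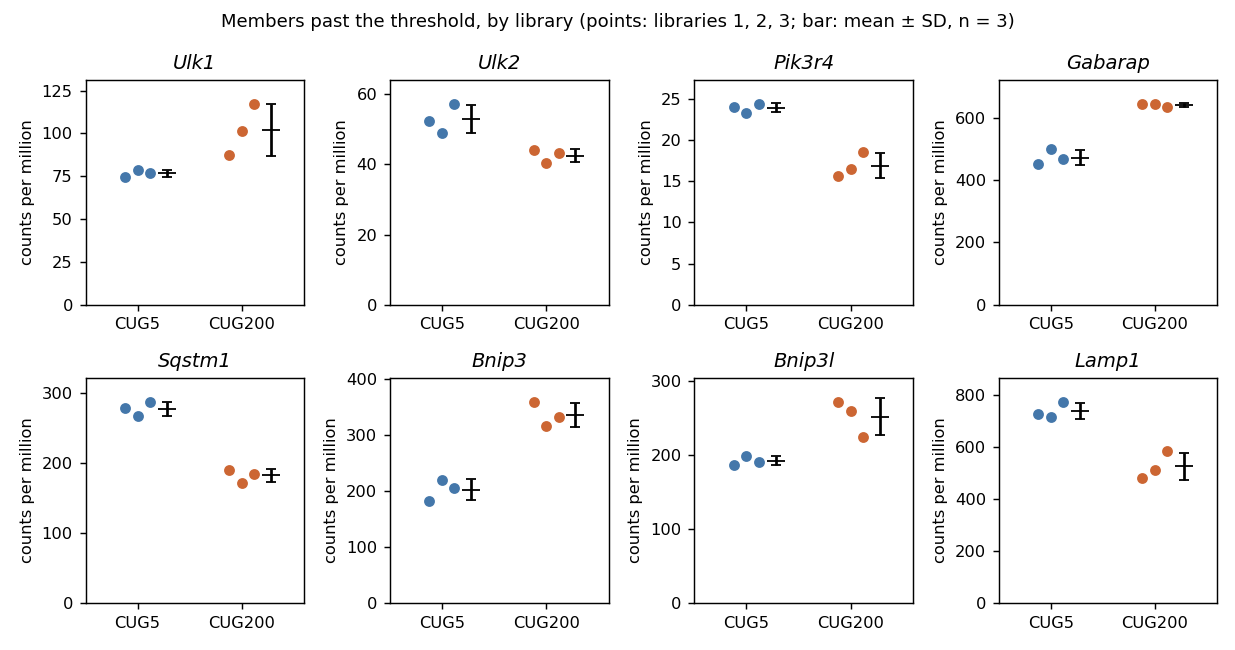
CPM (y axis, from 0) of the 8 genes with an adjusted p under 0.05, with a point for each of libraries 1, 2 and 3 and a bar for the mean ± SD of each group (n = 3). In all 8 panels the 3 DM1 points lie on one side of the 3 normal points, most widely for *Bnip3* (183 to 220.0 CPM against 316 to 358 CPM) and *Sqstm1* (267 to 287 CPM against 172 to 190.5 CPM).

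Of *Tfeb* and the genes of the lysosomal membrane proteins LAMP1 and LAMP2, *Lamp1* alone passed the test (1 of 3 genes, where 15.9% of all genes tested passed). *Lamp1* encodes an abundant glycoprotein of the lysosomal membrane (chr8:13159161-13175338, plus strand). Its level was 727, 717 and 772 CPM in the normal libraries and 482, 512 and 583 CPM in the DM1 libraries. The groups were apart, at 739 ± 29.5 and 526 ± 51.7 CPM (mean ± SD, n = 3), with a log2 fold change of -0.49 (SE 0.0950, edgeR adjusted p = 0.0119). The call was lost without CUG5 library 3 (edgeR adjusted p = 0.0684) and without CUG200 library 2 (adjusted p = 0.0616). *Lamp2*, whose product is needed for autophagosomes to fuse with lysosomes, read 495, 555 and 540.3 CPM in the normal libraries and 654, 604 and 494 CPM in the DM1 libraries. Its groups overlapped, and the log2 fold change was 0.14 (SE 0.114, edgeR adjusted p = 0.464). Within a library, the TPM of *Lamp1* was 1.87 to 2.08 times that of *Lamp2* in the normal group and 1.05 to 1.68 times in the DM1 group. *Tfeb*, the transcription factor of the pathway, had the lowest mean TPM of the 37 genes over the 6 libraries, at 4.87. *Uvrag* was close to it at a mean of 4.92 TPM. *Tfeb* was not the lowest in every library, as *Atg2a* was below it in normal library 2 (4.25 against 4.73 TPM). *Tfeb* read 5.69, 6.03 and 6.54 CPM in the normal libraries and 5.61, 6.02 and 6.38 CPM in the DM1 libraries. The log2 fold change of *Tfeb* was -0.02 with a 95% interval from -0.32 to 0.28.

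TFEB and its relatives bind the E-box CACGTG, so the promoters of the genes are shown where they hold it. RefSeq promoters (build GRCm38.p6, 250 bases before and 50 bases after the start site) were found for 30 of the 37 genes, as 34 promoters. There was no entry for *Rb1cc1*, *Atg16l1*, *Bnip3l*, *Map1lc3a*, *Atg12*, *Becn1* and *Pik3c3*. CACGTG reads the same on both strands, and it was in 6 of the 34 promoters (17.6%), where 7.15% of all 32851 promoters of this length held it. The 6 genes were *Lamp1*, *Bnip3*, *Atg3*, *Atg5*, *Atg7* and *Atg14*, of which 1 was lower (*Lamp1*), 1 was higher (*Bnip3*) and 4 did not pass the test. *Lamp1* held 4 copies, starting 61, 45, 28 and 15 bases before the start site. At least 4 copies were in 8 of all promoters (0.0244%). *Atg3* held 2 copies, and at least 2 were in 0.594% of all promoters. The 250 bases before the start sites of *Lamp1* (chr8:13158911-13159160, plus strand) and *Bnip3* (chr7:138909507-138909756, minus strand) are given because these genes moved in opposite directions. The stretches of *Atg3* (chr16:45158708-45158767, plus strand), *Atg5* (chr10:44268298-44268338, plus strand), *Atg7* (chr6:114670937-114670996, plus strand) and *Atg14* (chr14:47568418-47568441, minus strand) show the E-box in genes that did not pass the test. The RefSeq start sites of the *Atg7* and *Atg14* entries lie 27999 and 2215 bases inside the genes as the files give them, so these are internal start sites. Capitals mark CACGTG, and each runs 5′ to 3′ on the strand of its gene.
Lamp1: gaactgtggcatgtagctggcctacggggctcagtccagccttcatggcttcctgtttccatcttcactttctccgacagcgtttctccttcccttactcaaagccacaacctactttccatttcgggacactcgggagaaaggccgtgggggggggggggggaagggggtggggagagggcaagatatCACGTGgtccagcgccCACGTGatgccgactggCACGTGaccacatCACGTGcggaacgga
Bnip3: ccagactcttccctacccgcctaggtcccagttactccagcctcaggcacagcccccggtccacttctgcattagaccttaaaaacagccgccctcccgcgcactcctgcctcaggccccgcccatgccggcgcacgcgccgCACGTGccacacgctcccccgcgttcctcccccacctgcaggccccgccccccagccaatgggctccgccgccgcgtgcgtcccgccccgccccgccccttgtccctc
Atg3: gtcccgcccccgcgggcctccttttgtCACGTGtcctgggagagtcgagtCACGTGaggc
Atg5: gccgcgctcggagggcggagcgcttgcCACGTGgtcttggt
Atg7: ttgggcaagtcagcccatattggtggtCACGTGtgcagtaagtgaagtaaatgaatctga
Atg14: aaatccCACGTGactggccctgag

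The longer form GTCACGTG, searched on both strands, was in 4 of the 34 promoters (*Lamp1*, *Atg3*, *Atg7* and *Atg14*) and in 2.25% of all promoters. The motif bound by hypoxia-inducible factor has the core ACGTG or GCGTG. On either strand, and counting the copies inside the E-box, the first of these was in 15 of the 34 promoters (44.1%) and in 19.6% of all promoters. It was in the promoters of *Bnip3* and *Gabarap*, which were higher, of *Lamp1* and *Pik3r4*, which were lower, and of 11 genes that did not pass the test. The other core was in 22 of the 34 promoters (64.7%) and in 32.4% of all promoters. The FOXO motif GTAAACA, on either strand, was in 0 of the 34 promoters and in 3.65% of all promoters, which says only that these letters are not in these windows. For none of these motifs, the E-box included, were all promoters matched to the 34 in base composition. The shares are therefore descriptions, and binding was not tested.

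The other genes of the pathway were taken from lists of 49 further autophagy genes, 54 lysosomal hydrolases and membrane proteins and 16 vacuolar ATPase subunits. Of the 49 autophagy genes, 1 was higher and 8 were lower (18.4% called, where 15.9% of all genes tested were), with a median log2 fold change of -0.08. The higher gene was *Bcl2l1*, which encodes BCL-XL, an inhibitor of apoptosis that also binds Beclin 1, at 10.9 ± 0.341 CPM in the normal group and 28.3 ± 3.21 CPM in the DM1 group (mean ± SD, n = 3). Its log2 fold change was 1.37 (SE 0.115, edgeR adjusted p = 0.000916). The lower genes with the smallest p-values were *Trim55*, a ubiquitin ligase of the muscle sarcomere (log2 fold change -0.70, edgeR adjusted p = 0.00168), *Vps33a*, a subunit of the complexes that tether membranes to the lysosome (-0.54, adjusted p = 0.00864), and *Tollip*, an adaptor for ubiquitinated cargo (-0.46, adjusted p = 0.00962). *Trim55* read 83.5 ± 0.635 CPM in the normal group and 51.3 ± 2.03 CPM in the DM1 group (mean ± SD, n = 3).

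Of the 53 lysosomal genes that passed the filter, 7 were lower (13.2%, beside 8.73% of all genes tested) and 0 were higher by edgeR. At an unadjusted p under 0.05, 5 were higher and 16 were lower, where 14.7% and 16.0% of all genes tested were. DESeq2 called 4 higher and 10 lower, where it called 10.9% and 12.2% of the genes it tested. The median log2 fold change was -0.10. *Hexa*, a subunit of beta-hexosaminidase, had a log2 fold change of -0.53 (edgeR adjusted p = 0.00566), and *Psap*, the precursor of the saposins, had -0.49 (adjusted p = 0.0131). *Psap* was the more abundant of these, at 669 ± 33.6 CPM in the normal group and 477 ± 48.1 CPM in the DM1 group (mean ± SD, n = 3). The number of lower lysosomal genes was 2 without CUG5 library 1, 4 without CUG5 library 2, 2 without CUG5 library 3, 2 without CUG200 library 2 and 15 without CUG200 library 3. Library 3 of the DM1 group was the highest of its group for *Hexa* and *Psap*, as it was for *Lamp1*.

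The vacuolar ATPase acidifies the lysosome, and 1 of its 16 subunit genes was higher and 2 were lower (18.8% called, beside 15.9% of all genes tested), with a median log2 fold change of 0.09. *Atp6v0e*, of the membrane sector, was at 142 ± 6.63 CPM in the normal group and 202 ± 29.6 CPM in the DM1 group (mean ± SD, n = 3), with a log2 fold change of 0.50 (edgeR adjusted p = 0.0196). *Atp6v1b2*, of the sector that splits ATP, was at 109 ± 0.584 and 74.8 ± 2.10 CPM, with a log2 fold change of -0.54 (edgeR adjusted p = 0.00323). *Atp6v0d1*, also of the membrane sector, had a log2 fold change of -0.40 (edgeR adjusted p = 0.0131).

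**Figure D4:**
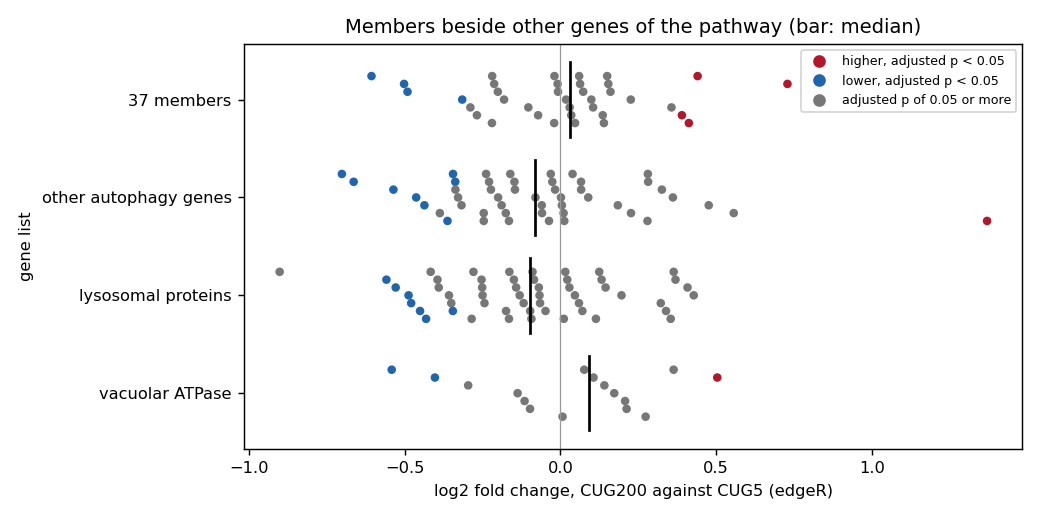
The log2 fold change of CUG200 against CUG5 (edgeR, x axis) of every tested gene in the 37 autophagy machinery genes and the 3 lists of other pathway genes (y axis), with 1 point per gene and a bar at the median. The medians are 0.03, -0.08, -0.10 and 0.09, and *Bcl2l1* at 1.37 is the highest point.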

How the data were processed

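RNA was sequenced from CUG5 and CUG200 cells on day 4 of differentiation, in 3 libraries each, grouped by the sample labels. The authors trimmed reads with Trim Galore, aligned them to GRCm38 with HISAT2 and quantified them with StringTie. They deposited counts per gene, not scaled to library size. Per library they also deposited the coverage (signal), FPKM and TPM, the last 2 scaled for length and depth. Coverage times transcript length gave 75 bases per count, and FPKM was not used further. Strand, read length and tool versions are not given in the sources used here.

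Genes were filtered with filterByExpr (minimum count 10), scaled by TMM and compared in edgeR 4.0.16 by a robust quasi-likelihood F test without covariates. P-values were adjusted by Benjamini-Hochberg over 19005 genes and called under 0.05. The scripts were tested on simulated data. There edgeR recovered 6 of 100 genes given an absolute log2 fold change of 0.5, and 55 of 100 given 1, with 10 false calls. Fewer genes differed there than were called here, so these rates need not hold here. A gene that was not called is not shown to be unchanged. The 37 genes and all lists were chosen with earlier results of these data known, so their counts are descriptions. All 37 are given, with values in every library for called genes, the ATG8 family and receptors, and up to 3 genes per direction of each other list (smallest p among called genes). A gene that this rule names is not reported here. Settings tried in turn were DESeq2 (1.42.0), the size factors of DESeq2 in edgeR, no TMM scaling, other filters, non-robust estimation, the replicate block, limma-trend (3.58.1) on TPM with a pseudocount of 1 or 0.1, counts per fragment, sums over genes sharing exons, the study's cutoffs and each library left out. Centred TPM and sums over either strand were chosen after seeing the data. The main fit did not pair the libraries by replicate number. R was 4.3.3 and Python 3.11.15 with pandas 2.3.3, numpy 2.4.6 and matplotlib 3.10.9.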

Additional observations from a re-analysis of the deposited data

How the results depend on the processing

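No called gene changed sign, and no gene outside the 8 called ones was called in any of the 19 alternatives with the threshold on the adjusted p alone. *Sqstm1* and *Bnip3* were called in all 19, *Lamp1* in 17, *Gabarap* in 15, *Bnip3l* in 13, *Pik3r4* in 12, *Ulk1* in 11 and *Ulk2* in 10. A fit without 1 library rests on 2 libraries in that group. Otherwise the cause of a change was not tested. The groups share replicate numbers, and the deviations of same-numbered libraries correlated at 0.113, 0.0518 and 0.0538. Those of libraries with unlike numbers correlated lower, at -0.103 to 0.0485. Whether a replicate number stands for a shared batch was not tested. With the replicate block 4 genes were higher and 4 lower, and the median log2 fold change was 0.030.

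Leaving out 1 library each gave 1 to 4 higher and 1 to 4 lower autophagy genes, a median of 0.0021 to 0.037, 2 to 15 lower lysosomal genes, and 543 to 1678 higher and 485 to 2111 lower genes among all tested. Counts moved by over 1.5 times without CUG5 library 1, 2 or 3 or CUG200 library 2, and that of lysosomal genes also without CUG200 library 3. The log2 fold changes that crossed 0 ranged over -0.041 to 0.10 for *Rb1cc1*, -0.068 to 0.038 for *Atg4b*, -0.030 to 0.014 for *Map1lc3b*, -0.099 to 0.024 for *Optn*, -0.067 to 0.047 for *Tfeb*, -0.37 to 0.013 for *Atg9a*, -0.059 to 0.29 for *Gabarapl2*, -0.097 to 0.13 for *Tax1bp1* and -0.031 to 0.12 for *Wipi2*.

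With limma on log2(TPM + 1), 1 autophagy gene was higher and 2 were lower, 1 lysosomal gene was lower, 352 of all genes were higher and 673 lower, and the median of the autophagy genes was -0.14. On log2(TPM + 0.1) these values were 1, 2, 2, 354, 696 and -0.14. The median of all genes tested moved from 0.02 to -0.06 and -0.09 on these scales. The fold changes that turned negative, on log2(TPM + 1) and log2(TPM + 0.1), were -0.039 and -0.040 for *Atg101*, -0.15 and -0.15 for *Rb1cc1*, -0.086 and -0.092 for *Ambra1*, -0.070 and -0.083 for *Atg2a*, -0.038 and -0.039 for *Wipi1*, -0.068 and -0.070 for *Atg12*, -0.0084 and -0.0084 for *Map1lc3a*, -0.0081 and -0.0083 for *Gabarapl2*, -0.35 and -0.35 for *Nbr1* and -0.12 and -0.12 for *Tax1bp1*. After centring TPM on the median gene, 3 autophagy genes were higher (*Bnip3*, *Gabarap* and *Bnip3l*), 2 autophagy genes were lower, 1201 of all genes were higher and 1067 were lower, the median was -0.025, and *Rb1cc1* was at -0.034, *Nbr1* at -0.23 and *Tax1bp1* at -0.0066. Library sizes alone gave a median of 0.0033 and -0.014 for *Tax1bp1*. Counts per fragment gave 0.0019 for *Atg4b* and 0.00062 for *Map1lc3b*, and sums over genes sharing exons on either strand gave 0.024 for *Atg9a*. With the study's cutoffs 0 autophagy genes were higher and 0 lower.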
